A study of Mus musculus with 4 samples.

Results

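The Fcγ receptors that bind IgG on macrophages were followed in 4 RNA-seq libraries of mouse peritoneal macrophages, together with the genes that carry their signals. The 9 genes, of 15298 with deposited values, are the activating receptors *Fcgr1*, *Fcgr3* and *Fcgr4*, the inhibitory receptor *Fcgr2b*, the signaling chain *Fcer1g*, the kinases *Syk* and *Lyn*, and the phosphatases *Inpp5d* and *Ptpn6*. They were listed by name for their place in antibody-dependent phagocytosis, with earlier results of these data known, and all 9 were found and passed the minimum expression in every comparison.

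The study asked how microcurrent stimulation (MCS), a weak pulsed current applied through the skin, acts on macrophages and their daily rhythm. All mice were female BALB/c, 6 weeks old. MCS mice received current for 15 min through pads on the abdomen and the back under isoflurane at Zeitgeber Time (ZT) 2, that is, after lights on, and control mice went through the same handling with no current. Macrophages of the peritoneal cavity, sorted as CD11b+ F4/80+ Ly6G- cells, were taken right after stimulation (ZT2) or 12 h later (ZT14). Control ZT2, control ZT14, MCS ZT2 and MCS ZT14 have 1 library each, and how many mice each library holds is not stated in the sources at hand. No value therefore has a replicate check, and no single pair of conditions can be tested. The exception is a model over all 4 libraries that assumes additive effects of MCS and time, given further on. The reads recovered from the values totaled between 8365590 and 9953243 per library. Levels are read counts scaled to library size (CPM), and log2 ratios were taken after adding 0.1 CPM. The 95% counting intervals given with them compare libraries, not groups of mice, and cover counting error only.

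Fcγ receptors recognize the constant part of IgG bound to a particle or a cell. The activating receptors pass the signal through the common γ chain encoded by *Fcer1g*, whose paired tyrosines (the ITAM) are phosphorylated by Src family kinases such as LYN and then recruit the kinase SYK, which leads to actin remodeling and engulfment. The inhibitory receptor encoded by *Fcgr2b* carries a single-tyrosine motif (the ITIM) that recruits phosphatases, chiefly the lipid phosphatase encoded by *Inpp5d*, and the balance of activating and inhibitory receptors sets how readily a macrophage responds to antibody.

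The opposing signaling motifs are shown as coding DNA, since they are what separates the activating chain from the inhibitory receptor. They were found by searching the coding transcripts of the GENCODE annotation on GRCm38, the assembly called mm10 by the authors, and both genes lie on the minus strand. Tyrosine codons are in capitals.
*Fcer1g* ITAM: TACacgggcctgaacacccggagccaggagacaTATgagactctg
*Fcgr2b* ITIM: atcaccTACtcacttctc
The *Fcer1g* motif covers codons 65 to 79 of 86 and spans exons 4 and 5 at chr1:171229889-171230072, in 1 of 2 coding transcripts. The *Fcgr2b* motif covers codons 317 to 322 of 340 in exon 8 at chr1:170961071-170961088 and is in all 4 coding transcripts. No ITAM was found in the coding sequence of *Fcgr1*, *Fcgr3* or *Fcgr4*.

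Of these genes, 4 share a stretch of chromosome 1. In GRCm38, *Fcgr2b* lies at chr1:170958617-170976547 on the minus strand, *Fcgr4* at chr1:171018920-171029761 on the plus strand, and *Fcgr3* at chr1:171051174-171064935 and *Fcer1g* at chr1:171229572-171234365, both on the minus strand. *Fcgr1* lies apart on the minus strand at chr3:96282909-96293969. *Fcgr2b* and *Fcgr3* are close relatives, with 83.93% identity over 784 aligned coding bases, against 58.6% to 63.5% for the other receptor pairs. Their longest identical run is 129 coding bases in exons 3 and 4, shown because a read that lay wholly inside it could not be given to either gene from its sequence.
Identical run of *Fcgr2b* and *Fcgr3*: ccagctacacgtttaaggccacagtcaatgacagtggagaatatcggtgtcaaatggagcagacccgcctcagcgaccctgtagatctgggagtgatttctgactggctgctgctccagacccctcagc
It lies at chr1:170966674-170968081 in *Fcgr2b* and at chr1:171054167-171057792 in *Fcgr3*. The study's reads were 150 bases long before trimming, which is longer than this run, and 0 of 3955 windows of 150 bases in *Fcgr2b* transcripts were shared with *Fcgr3*. By exact sequence, only reads cut shorter by trimming could thus match both genes. Alignments with mismatches were not examined. *Fcgr2b* and *Ptpn6* also overlap annotated antisense genes (*Gm38204* and *Gm20531*) and *Lyn* overlaps a noncoding gene on the other strand (*Gm26857*). The study's methods name a directional library kit, so the reads carry strand. Whether the counting used strand is not stated in the sources at hand, and without it reads of such pairs cannot be told apart.

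*Fcgr4* had the widest range of the 9 genes. It encodes the receptor for IgG2a and IgG2b. Its level was 42.4 CPM in control ZT2, 36.1 CPM in control ZT14, 40.02 CPM in MCS ZT2 and 78.9 CPM in MCS ZT14. The MCS ZT14 library stood above the other three, which lay close together. MCS exceeded control at ZT14 by a log2 ratio of 1.12 (95% interval 0.94 to 1.32), a 2.18-fold difference, and the ratio at ZT2 was -0.08 (-0.30 to 0.13). In MCS, the log2 ratio of ZT2 to ZT14 was -0.98 (-1.17 to -0.79), and in control it was 0.23 (0.01 to 0.45). In bulk RNA a difference in the share of cells that express a gene and a difference in RNA per cell cannot be told apart.

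*Fcgr1*, which encodes the high-affinity receptor for IgG, was the least abundant and was also highest in MCS ZT14. It had 10.6 CPM in control ZT2, 10.5 CPM in control ZT14, 10.3 CPM in MCS ZT2 and 16.4 CPM in MCS ZT14. These values rest on few reads, 92 and 96 in the control libraries. Between MCS and control its log2 ratio was 0.63 at ZT14 (95% interval 0.26 to 1.01), but -0.04 at ZT2 (-0.48 to 0.39). *Fcgr3*, the low-affinity receptor and the most abundant of the activating receptors, varied far less. Its level was 336 CPM in control ZT2, 306 CPM in control ZT14, 356 CPM in MCS ZT2 and 361 CPM in MCS ZT14, so that control ZT14 was lowest. Its log2 ratios of MCS to control were 0.24 at ZT14 (0.16 to 0.31), where the sum with *Fcgr2b* gave -0.04, and 0.08 at ZT2 (0.01 to 0.16).

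**Figure D1:**
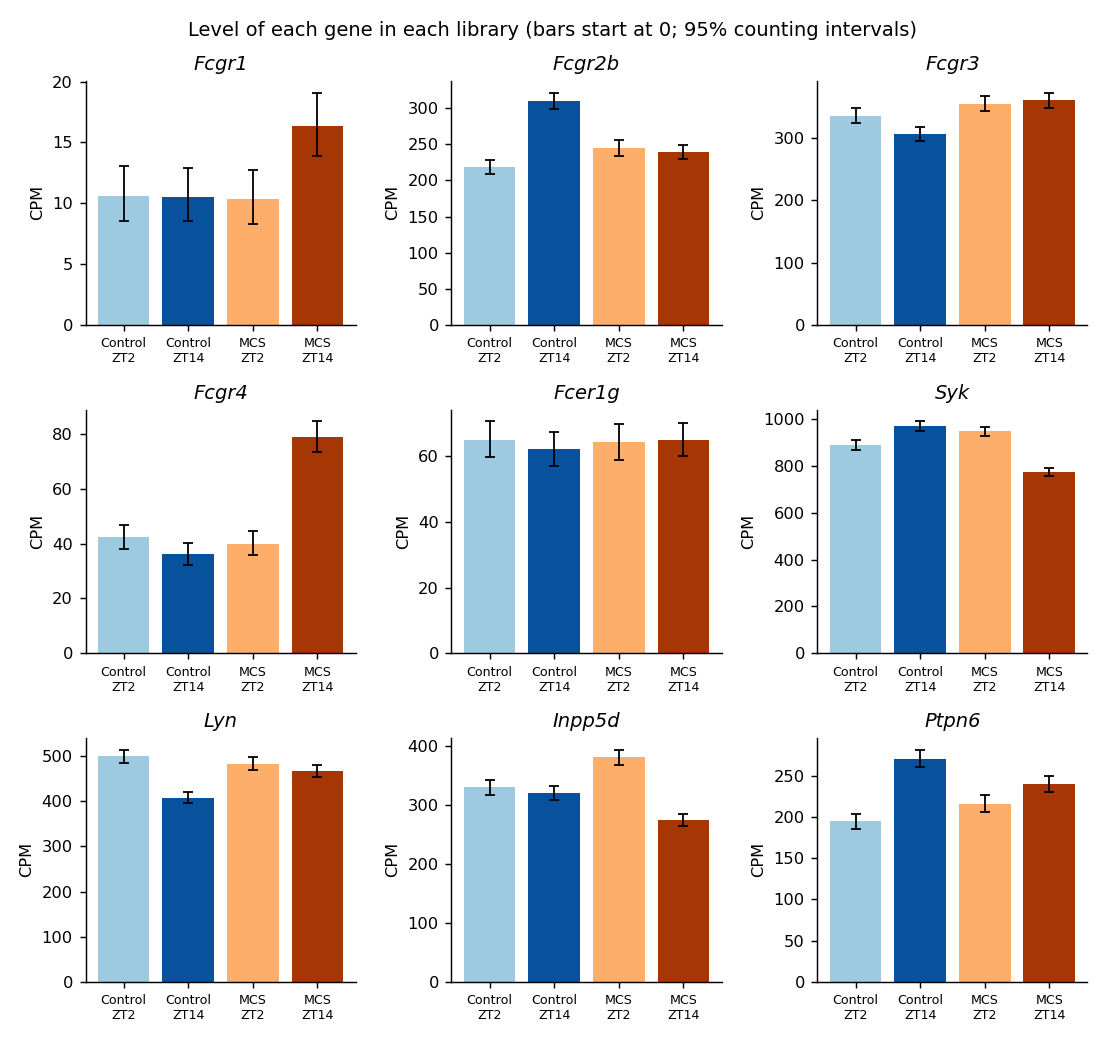
Level of each gene in CPM (vertical axis, from 0, with a scale of its own in each panel) in the 4 libraries. Bars are single libraries and error bars are 95% exact Poisson intervals from the reads, for counting error only. *Fcgr4* reached 78.9 CPM in MCS ZT14 and 36.1 to 42.4 CPM elsewhere, *Fcgr2b* was highest in control ZT14 at 310 CPM, and *Fcer1g* lay between 62.1 and 65.0 CPM.

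*Fcgr2b* followed a different course. It had 218 CPM in control ZT2, 310 CPM in control ZT14, 245 CPM in MCS ZT2 and 239 CPM in MCS ZT14. Here control ZT14 was the library that stood apart, and both MCS libraries lay near each other. With MCS, its log2 ratio to control was -0.37 at ZT14 (95% interval -0.45 to -0.29), whereas at ZT2 it was 0.17 (0.08 to 0.26). In control, the log2 ratio of ZT2 to ZT14 was -0.51 (-0.59 to -0.42), and in MCS it was 0.03 (-0.05 to 0.12). The comparison with MCS at ZT14 and that of the time points in control use the same control ZT14 library, so they are not separate observations. The summed reads of *Fcgr2b* and *Fcgr3* had a log2 ratio of MCS to control of -0.04 at ZT14. Between the time points in control the sum had a log2 ratio of -0.15. Such a sum does not separate the genes and cannot show how many reads were shared.

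*Fcer1g*, the chain that all 3 activating receptors need, was the steadiest of the 9 genes. It had 65.0 CPM in control ZT2, 62.1 CPM in control ZT14, 64.2 CPM in MCS ZT2 and 64.9 CPM in MCS ZT14. Its log2 ratios lay between -0.02 and 0.07, and all 4 counting intervals included 0. At ZT14 the interval reached from -0.10 to 0.23.

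*Syk* was the most abundant in CPM and was lowest in MCS ZT14. It had 891 CPM in control ZT2, 972 CPM in control ZT14, 948 CPM in MCS ZT2 and 775 CPM in MCS ZT14. Log2 ratios of MCS to control were -0.33 at ZT14 (95% interval -0.37 to -0.28) and 0.09 at ZT2 (0.04 to 0.13). *Lyn*, which also phosphorylates the ITIM, had 500 CPM in control ZT2, 408 CPM in control ZT14, 484 CPM in MCS ZT2 and 467 CPM in MCS ZT14. It was lowest in control ZT14, with a log2 ratio of MCS to control of 0.19 at ZT14 (0.13 to 0.26) and -0.05 at ZT2 (-0.11 to 0.02). The kinases that start the signal thus had opposite signs at ZT14.

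*Inpp5d*, which encodes the phosphatase SHIP1, had 330 CPM in control ZT2, 320 CPM in control ZT14, 381 CPM in MCS ZT2 and 275 CPM in MCS ZT14. The MCS libraries were the highest and the lowest, and the control libraries lay between them. MCS over control gave log2 ratios of -0.22 at ZT14 (95% interval -0.30 to -0.14) and 0.21 at ZT2 (0.13 to 0.28). *Ptpn6*, which encodes the tyrosine phosphatase SHP1, had 195 CPM in control ZT2, 271 CPM in control ZT14, 217 CPM in MCS ZT2 and 240 CPM in MCS ZT14. It was higher at ZT14 than at ZT2 in both arms, with log2 ratios of ZT2 to ZT14 of -0.48 in control (-0.57 to -0.39) and -0.15 in MCS (-0.24 to -0.06). Against control, MCS gave log2 ratios of -0.17 at ZT14 (-0.26 to -0.09) and 0.15 at ZT2 (0.06 to 0.25).

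Per length, the order of the levels changed. Divided by the longest transcript and averaged over the 4 libraries, *Fcgr3* was highest at 252 CPM per kb, followed by *Syk* at 167 and *Lyn* at 134 CPM per kb. *Ptpn6* at 100.01 and *Fcer1g* at 93.8 CPM per kb were neighbors, as were *Fcgr2b* at 71.4 and *Inpp5d* at 66.1 CPM per kb. *Fcgr4* came next at 39.3 CPM per kb and *Fcgr1* was lowest at 4.62 CPM per kb. By coding length *Syk* came first, *Fcgr2b* rose to rank 4 and *Ptpn6* fell to rank 6, so only the low places of *Fcgr4* and *Fcgr1* and that of *Inpp5d*, *Lyn* and *Fcer1g* were the same on both scales.

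The counts of the 9 genes were set beside those of all genes above a log2 mean of 0 in the same comparison. At ZT14, 1 gene (*Fcgr4*) passed an absolute log2 ratio of 1 between MCS and control, and 2 genes (*Fcgr4* and *Fcgr1*) passed 0.5, against 3.4% and 16.7% of 12368 genes. *Fcgr4* ranked 156th from the highest. The counting interval excluded 0 for 8 of the 9 genes, 4 higher and 4 lower, against 37.6% of all genes. At ZT2 right after stimulation, no gene passed 1 or 0.5, against 2.21% and 10.4% of 12612 genes, and 5 intervals excluded 0, all on the higher side, against 22.5%. For 4 of the 9 genes (*Fcgr2b*, *Syk*, *Inpp5d* and *Ptpn6*) the ratio had opposite signs at ZT2 and ZT14 with both counting intervals excluding 0, against 10.2% of 12236 genes above the minimum at both time points. The median absolute log2 ratio of the 9 genes was 0.24 at ZT14 and 0.08 at ZT2, and that of all genes was 0.21 and 0.15. A counting interval is narrower for a gene with more reads, so these shares depend on how abundant the genes are.

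Between the time points, *Fcgr2b* alone passed 0.5 in control, and no gene passed 1, against 15.3% and 3.61% of 12465 genes. In MCS, *Fcgr4* and *Fcgr1* passed 0.5 and no gene passed 1, against 23.6% and 5.83% of 12534 genes. Counting intervals excluded 0 for 6 genes in control and 5 in MCS, against 29.5% and 44.0% of all genes. A wider interval was added after the data were seen, in which the common dispersion of a count test over the 4 libraries (0.0196, from 1 residual degree of freedom) was joined to the counting error. This dispersion is a single value shared by all genes, so it does not measure the spread of *Fcgr4* or of any other gene by itself. It also takes in any difference in the effect of MCS between the time points. Among the 9 genes the wider interval excluded 0 only for *Fcgr4*, at ZT14 (0.54 to 1.71) and between the time points in MCS (-1.57 to -0.39). The same interval excluded 0 for 6.21% of all genes between MCS and control at ZT14 and 2.29% at ZT2, and for 5.62% and 11.1% between the time points in control and MCS. For *Fcgr2b* it reached from -0.94 to 0.19 at ZT14 and from -1.07 to 0.06 between the time points in control.

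**Figure D2:**
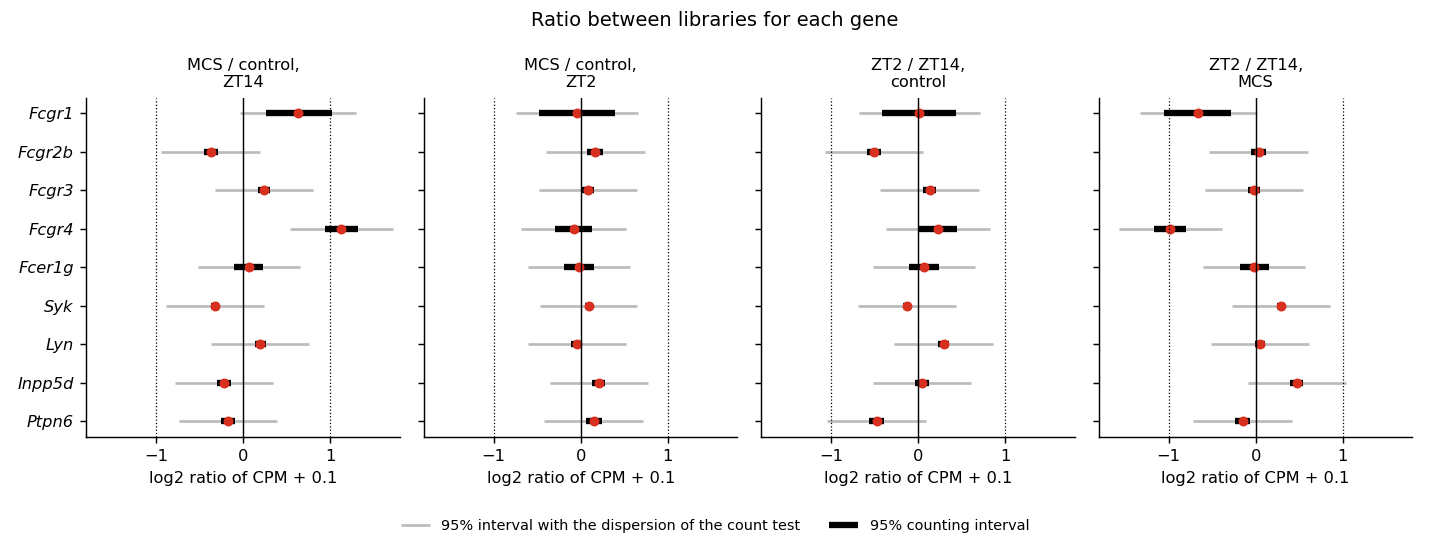
Log2 ratios of the 9 genes (points) in the 4 comparisons, with 95% counting intervals (thick black) and wider intervals that add the dispersion of the count test (thin gray). Dotted lines mark log2 ratios of -1 and 1. *Fcgr4* lay at 1.12 for MCS over control at ZT14 and at -0.98 for ZT2 over ZT14 in MCS, and its wider interval excluded 0 in both.

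A count test with additive terms for MCS and time (edgeR's quasi-likelihood test with Benjamini-Hochberg adjustment) called 0.185% of 12404 genes for MCS and 2.18% for time, and none of the 9 genes in either. At an unadjusted p under 0.05, 1 of the 9 genes passed for MCS and 0 for time, against 2.41% and 10.2% of all genes. The gene was *Fcgr4*, with a fitted log2 ratio of 0.53 and an adjusted p = 1 from edgeR. This test assumes the same effect of MCS at ZT2 and ZT14 and does not bear on ZT14 alone.

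The activating receptors were then set against *Fcgr2b* within each library, a ratio that needs no scaling between libraries. The summed CPM of *Fcgr1*, *Fcgr3* and *Fcgr4* was 1.78 times that of *Fcgr2b* in control ZT2 (95% counting interval 1.68 to 1.89), 1.14 times in control ZT14 (1.08 to 1.20), 1.66 times in MCS ZT2 (1.57 to 1.75) and 1.91 times in MCS ZT14 (1.81 to 2.00). Control ZT14 lay below the other libraries. Between MCS and control this ratio differed by 0.74 on the log2 scale at ZT14 (0.64 to 0.85) and by -0.10 at ZT2 (-0.22 to 0.01). In control the ratio at ZT2 was above that at ZT14 by 0.65 on the log2 scale (0.54 to 0.76), and in MCS the log2 ratio was -0.20 (-0.31 to -0.09). With the dispersion of the count test added, all 4 intervals included 0, and that for MCS at ZT14 reached from -0.06 to 1.54.

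Most of the activating sum was *Fcgr3*, which took 86.4% in control ZT2, 86.8% in control ZT14, 87.6% in MCS ZT2 and 79.1% in MCS ZT14. *Fcgr4* took 10.9%, 10.2%, 9.86% and 17.3% in the same order, and *Fcgr1* between 2.54% and 3.59%. The shift in MCS ZT14 was thus one toward *Fcgr4*. Taken alone, the level of *Fcgr4* was 0.117 times that of *Fcgr2b* in control ZT14 (95% counting interval 0.104 to 0.131) and 0.330 times in MCS ZT14 (0.304 to 0.358). In CPM, *Fcgr3* had 0.988 times the level of *Fcgr2b* in control ZT14 and between 1.45 and 1.54 times in the other libraries. Per kb of the longest transcript it had 2.60 times the level of *Fcgr2b* in control ZT14 and between 3.82 and 4.05 times elsewhere, and per kb of coding sequence 1.26 times and between 1.85 and 1.96 times. Control ZT14 was lowest in CPM. The order of the libraries cannot differ per kb, since the lengths are the same in every library. Without *Fcgr4*, the log2 ratio of activating to inhibitory receptors between MCS and control at ZT14 was 0.62, and without *Fcgr3* it was 1.40.

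**Figure D3:**
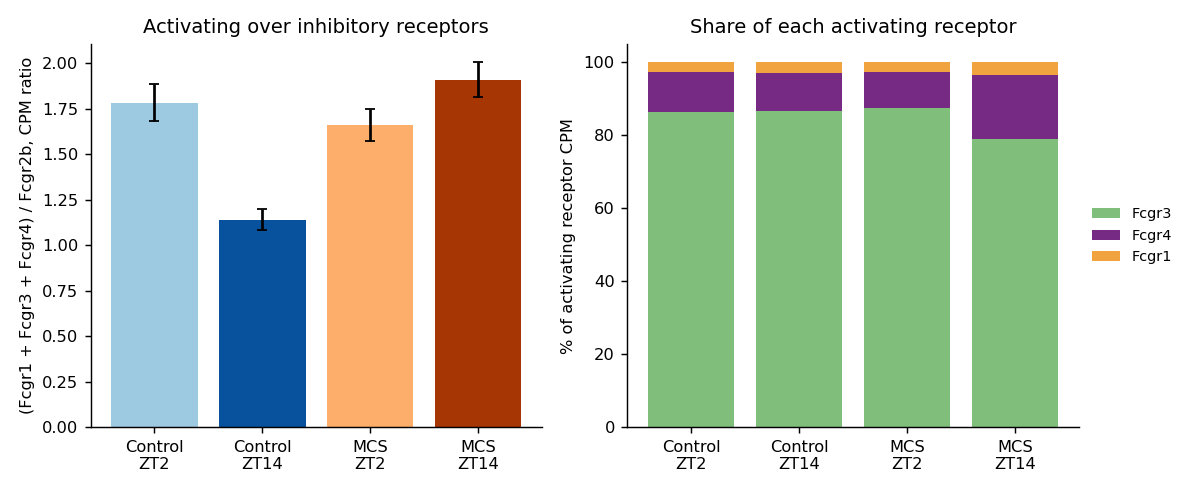
Left, summed CPM of *Fcgr1*, *Fcgr3* and *Fcgr4* divided by that of *Fcgr2b* in each library (vertical axis from 0, error bars are 95% counting intervals). Right, the share of each activating receptor in that sum, in percent. Control ZT14 had the lowest ratio at 1.14, and *Fcgr4* took 17.3% of the sum in MCS ZT14 against 9.86% to 10.9% elsewhere.

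*Fcgr4* and *Fcgr1*, the genes past 0.5 at ZT14, were compared in the 250 bases before their RefSeq start on GRCm38.p6. Motifs searched on both strands were the letters ACTTCCT, reading AGGAAGT on the opposite strand, which resemble sites of ETS factors such as the myeloid factor PU.1, and the E-box CACGTG, which the clock proteins CLOCK and ARNTL bind. Matches are in capitals and each sequence reads along its gene.
*Fcgr4*, chr1:171018676-171018925, plus strand: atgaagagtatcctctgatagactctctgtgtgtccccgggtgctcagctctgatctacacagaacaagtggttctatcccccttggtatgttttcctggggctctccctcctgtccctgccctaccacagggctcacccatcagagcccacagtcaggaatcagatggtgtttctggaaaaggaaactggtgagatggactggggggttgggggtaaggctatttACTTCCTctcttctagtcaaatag
*Fcgr1*, chr3:96293970-96294219, minus strand: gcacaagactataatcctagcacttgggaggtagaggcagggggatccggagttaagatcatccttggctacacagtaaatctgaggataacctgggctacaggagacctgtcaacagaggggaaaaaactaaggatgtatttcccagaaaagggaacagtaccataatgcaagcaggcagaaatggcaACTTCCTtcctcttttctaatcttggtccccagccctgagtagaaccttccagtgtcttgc
The *Fcgr1* window held ACTTCCT at position -61 from the start, and the *Fcgr4* window held ACTTCCT at position -24. ACTTCCT was also found for *Inpp5d* and *Ptpn6*, and CACGTG for none of the 8 genes with an entry. Over 32851 promoters of the same length, ACTTCCT was present in 7.686% and CACGTG in 6.021%. A match is a description of these letters only.

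Beyond the 9 genes, 13 other receptors for antibody constant parts were measured, 12 of them above the minimum. At ZT14 their log2 ratios of MCS to control had a median of -0.41, with 10 of 12 below 0, against a median of 0.00 over all genes. Of these, 5 of 12 had counting intervals below 0 and none above, beside the 37.6% of all genes with an interval that excluded 0 in either direction. *Fcmr*, the IgM receptor found mainly on B cells, had 76.7 CPM in control ZT2, 102 CPM in control ZT14, 75.9 CPM in MCS ZT2 and 38.1 CPM in MCS ZT14. It was lowest in MCS ZT14, with a log2 ratio of -1.41 (95% interval -1.59 to -1.24). *Fcer2a*, the low-affinity IgE receptor of B cells, and *Fcrla*, an intracellular Fc receptor-like protein of B cells, had log2 ratios of -0.72 and -0.63. *Fcrls*, an Fc receptor-like gene of myeloid cells, had 57.6 CPM in control ZT14 and 42.0 CPM in MCS ZT14, a log2 ratio of -0.45 (-0.64 to -0.26). *Pigr*, which carries polymeric antibodies across epithelia, was the other gene past 1, beside 3.4% of all genes. It had 5.05 CPM in control ZT14 against 2.45 CPM in MCS ZT14, with a log2 ratio of -1.01 (-1.82 to -0.30).

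The remaining antibody receptors had intervals that included 0 at ZT14. *Fcgrt*, the neonatal receptor that recycles IgG, had 259 CPM in control ZT14 and 263 CPM in MCS ZT14, a log2 ratio of 0.02. *Fcrl1* and *Fcrl5*, both B cell genes, had log2 ratios of -0.26 and -0.03. The IgE receptor chains *Fcer1a* and *Ms4a2*, typical of mast cells, had log2 ratios of -0.37 and 0.08, at levels below 10 CPM. *Trim21*, the cytosolic antibody receptor, had -0.16. *Fcamr* had 1.87 CPM in control ZT14 and 1.23 CPM in MCS ZT14, and *Fcrlb* stayed below 1 CPM in every library. At ZT2, 6 of the 12 receptors above the minimum had log2 ratios above 0 and 6 below.

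Among Src family kinases and their regulators, 0 of 9 genes passed a log2 ratio of 1 with MCS at ZT14, with a median of -0.12. Over all 12368 genes 3.4% passed 1, so a short list can have none past 1 without differing from them. *Fgr*, a Src family kinase of myeloid cells, had 120 CPM in control ZT14 and 143 CPM in MCS ZT14, a log2 ratio of 0.25 (95% interval 0.14 to 0.37). *Pag1*, an adaptor that holds these kinases in check, was higher at ZT2 than at ZT14, with log2 ratios of 0.68 in control and 0.91 in MCS. Of 27 adaptors and enzymes that act after SYK, none passed 1 with MCS at ZT14, beside the same 3.4%, and the median was 0.03. *Pik3r5*, a regulatory subunit of phosphoinositide 3-kinase γ, had 283 CPM in control ZT2, 123 CPM in control ZT14, 303 CPM in MCS ZT2 and 161 CPM in MCS ZT14. It was higher at ZT2 in both arms, with log2 ratios of ZT2 to ZT14 of 1.20 and 0.91.

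The actin genes of the phagocytic cup, 33 of 34 above the minimum, had a median of -0.05 with MCS at ZT14. None passed 1 and 2 passed 0.5, both higher, beside 3.4% and 16.7% of all genes. Counting intervals lay above 0 for 12 of the 33 genes and below 0 for 10, beside 37.6% of all genes with an interval that excluded 0. *Coro1a*, which encodes an actin-binding coronin, had 215 CPM in control ZT14 and 278 CPM in MCS ZT14, a log2 ratio of 0.37 (95% interval 0.29 to 0.46). *Elmo1*, a partner of DOCK proteins in activating RAC, had a log2 ratio of -0.26 (-0.39 to -0.14). The 24 inhibitory receptors, phosphatases and ligases had a median of 0.07 and none past 1, beside 3.4% of all genes. *Cblb*, a ubiquitin ligase, had 195 CPM in control ZT2, 155 CPM in control ZT14, 265 CPM in MCS ZT2 and 136 CPM in MCS ZT14, with log2 ratios of ZT2 to ZT14 of 0.33 in control and 0.96 in MCS. *Siglece*, an inhibitory sialic acid receptor, had a log2 ratio of MCS to control of 0.20 at ZT14, with an interval that included 0, and 0.52 at ZT2 (0.13 to 0.93).

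Other receptors that pair with the chains of *Fcer1g* or *Tyrobp* were measured for 18 of 22 genes, 15 of them above the minimum at ZT14. Their median log2 ratio was 0.33 at ZT14, and *Pira1* was the one past 1, beside 3.4% of all genes. *Pira1*, an activating immunoglobulin-like receptor, had 59.6 CPM in control ZT2, 26.5 CPM in control ZT14, 13.5 CPM in MCS ZT2 and 72.6 CPM in MCS ZT14. It has near-identical relatives whose reads it may share, so these levels are uncertain. *Tyrobp*, a chain with the same kind of ITAM as *Fcer1g* and picked out after its values were seen, had 350 CPM in control ZT14 and 483 CPM in MCS ZT14, a log2 ratio of 0.46 (95% interval 0.40 to 0.53). *Fcgr1* is known to be induced by interferon-γ. Other interferon-responsive genes had a median log2 ratio of 0.19 at ZT14 over 21 genes. Of these, 17 were above 0 and none past 1, beside 6236 above 0 and 3.4% past 1 of all 12368 genes. *Irf8*, a transcription factor of macrophages, and *Cd274*, which encodes PD-L1, had log2 ratios of -0.41 and -0.77. In this list 5 intervals lay above 0 and 3 below, beside 37.6% of all genes with an interval that excluded 0.

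**Figure D4:**
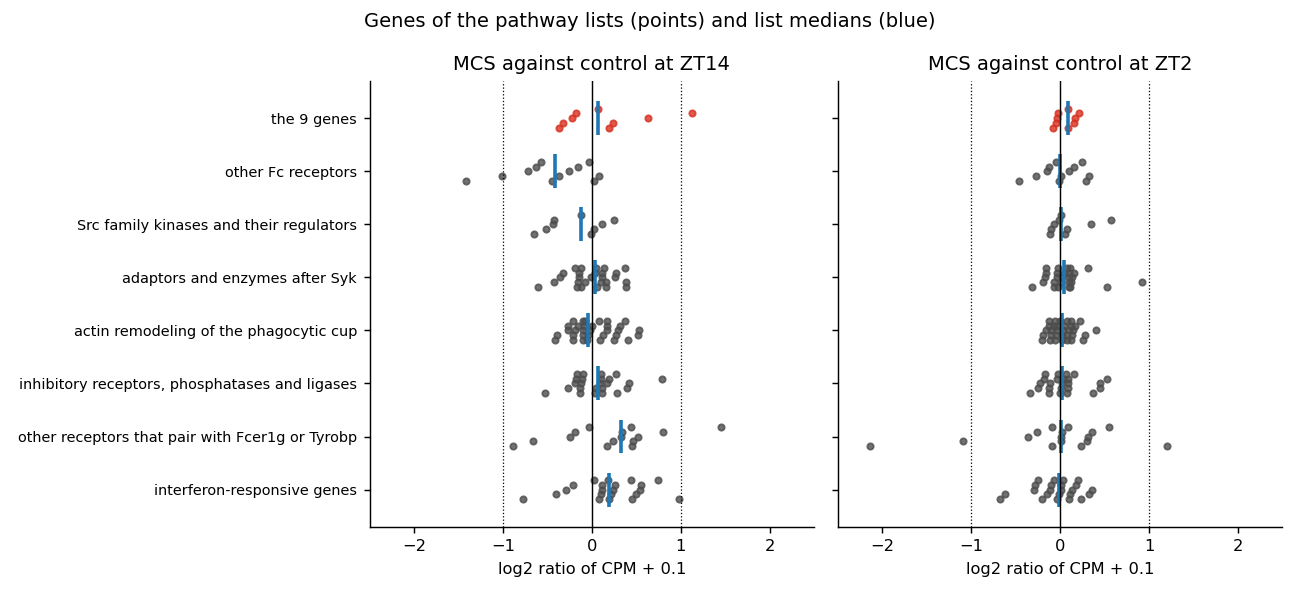
Log2 ratio of MCS to control at ZT14 (left) and ZT2 (right) for the 9 genes (red) and for the genes of 7 pathway lists above the minimum expression (gray, 1 point per gene), with list medians in blue. At ZT14 the other Fc receptors had a median of -0.41 and the receptors that pair with *Fcer1g* or *Tyrobp* one of 0.33. Points are spread vertically for legibility.

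Cell type markers were checked in the sorted cells. All 8 macrophage markers were present, with summed levels of 24954 to 27428 CPM, led by *Lyz2* at 17344 CPM or more. Markers of B cells, which also express *Fcgr2b*, were present as well. The 7 B cell markers measured of 9 summed to 1301 CPM in control ZT2, 1581 CPM in control ZT14, 1222 CPM in MCS ZT2 and 1078 CPM in MCS ZT14, and none was at 0. Like *Fcgr2b*, the sum was highest in control ZT14. Its log2 ratio of MCS to control was -0.55 at ZT14 and -0.09 at ZT2, and that of ZT2 to ZT14 was -0.28 in control and 0.18 in MCS, beside -0.37, 0.17, -0.51 and 0.03 for *Fcgr2b*. Their part in the levels of *Fcgr2b*, *Ptpn6*, *Syk*, *Lyn*, *Inpp5d*, *Fcmr*, *Fcer2a* and *Fcrla*, all of which B cells express, was not tested. *Fcmr* is itself among the 7 markers of the sum.

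*Fcgr4* was set beside the same markers. Large peritoneal macrophage markers summed to 9090 CPM in control ZT2, 8778 CPM in control ZT14, 8112 CPM in MCS ZT2 and 10176 CPM in MCS ZT14, a log2 ratio of MCS to control of 0.21 at ZT14. Within this list *Alox15* went from 3712 CPM in control ZT14 to 5532 CPM in MCS ZT14, and *Gata6*, *Icam2* and *Selp* were also higher. *Prg4*, from 3595 to 3028 CPM, and *Timd4* were lower. Small peritoneal macrophage and monocyte markers summed to 646 CPM in control ZT14 and 570 CPM in MCS ZT14, a log2 ratio of -0.18. Neutrophil markers, 9 of 10 measured, summed to 125 CPM in control ZT14 and 128 CPM in MCS ZT14, a log2 ratio of 0.04. Most of this sum was *Mmp9*, with 91.2 CPM in control ZT14 and 109 CPM in MCS ZT14, and *Retnlg* was also higher in MCS. *S100a8*, *S100a9*, *Cxcr2*, *Mmp8*, *Camp*, *Ltf* and *Ngp* were lower, with *S100a9* at 9.23 CPM in control ZT14 and 1.23 CPM in MCS ZT14. Of these, 2 (*Camp* and *Ngp*) were at 0 in MCS ZT14. Natural killer cell markers, 7 of 8 measured, summed to 25.2 CPM in control ZT14 and 26.6 CPM in MCS ZT14, a log2 ratio of 0.08. At ZT2 the neutrophil sum was 146 CPM in control and 259 CPM with MCS, and its log2 ratio of ZT2 to ZT14 in MCS was above 0, opposite in sign to that of *Fcgr4*.

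Eosinophil markers, 3 of 5 measured, summed to 57.6 CPM in control ZT2, 50.9 CPM in control ZT14, 67.1 CPM in MCS ZT2 and 81.9 CPM in MCS ZT14. Within this list the genes moved in different directions. *Ccr3*, the eotaxin receptor, had 5.31 CPM in control ZT2, 1.32 CPM in control ZT14, 12.2 CPM in MCS ZT2 and 33.8 CPM in MCS ZT14, and *Siglecf*, a sialic acid receptor of eosinophils, had 1.27, 0.659, 5.80 and 14.1 CPM in the same order. Both were highest in MCS ZT14, as was *Fcgr4*. *Il5ra*, which made up most of the sum in the other libraries, went the other way at ZT14, from 48.9 CPM in control to 33.9 CPM in MCS. The part of these cell types in the level of *Fcgr4* was not tested. Mast cell markers summed to 1828 CPM in control ZT2, 1189 CPM in control ZT14, 2254 CPM in MCS ZT2 and 959 CPM in MCS ZT14, and were higher at ZT2 than at ZT14 in both arms. Summed dendritic cell markers lay between 34.2 and 63.1 CPM and T cell markers between 17.5 and 33.1 CPM.

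**Figure D5:**
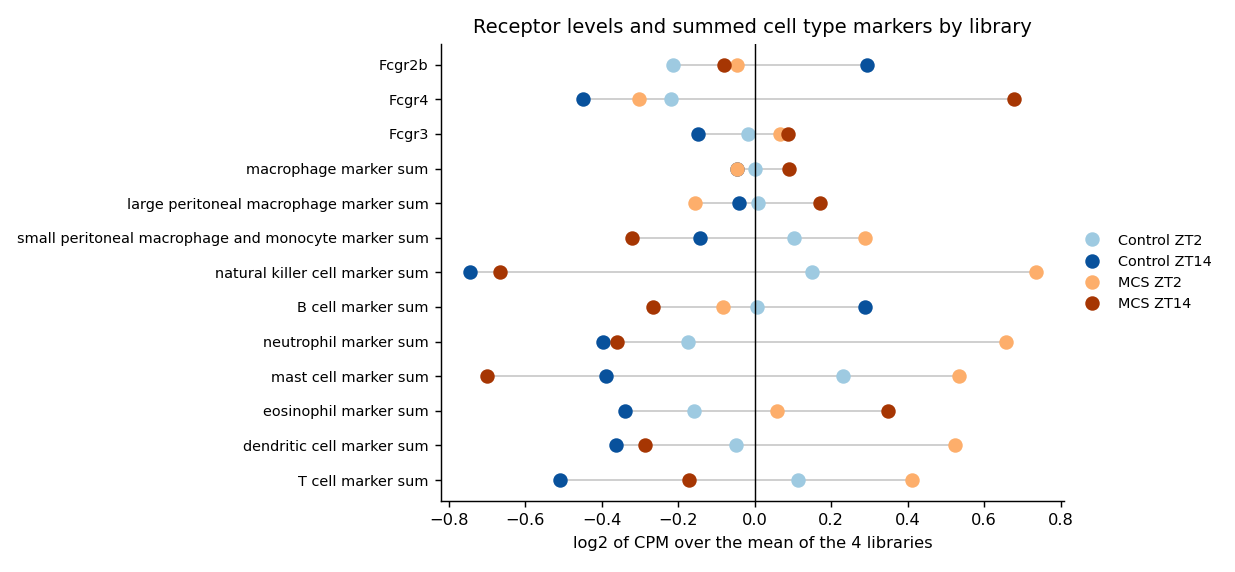
Log2 of the level in each library over the mean of the 4 libraries (horizontal axis) for *Fcgr2b*, *Fcgr4* and *Fcgr3* and for the summed CPM of marker genes of 10 cell types. *Fcgr2b* and the B cell marker sum, at 1581 CPM, were both highest in control ZT14, and *Fcgr4* was highest in MCS ZT14.

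The 275.7 kb of chromosome 1 from *Fcgr2b* to *Fcer1g* held 9 measured genes, the 4 named above and 5 others, of which *Sdhc* alone reached 10 CPM. *Sdhc*, a subunit of succinate dehydrogenase, had a log2 ratio of MCS to control of 0.47 at ZT14 and -0.17 at ZT2. Neighbors thus differed, from -0.37 for *Fcgr2b* to 1.12 for *Fcgr4*.

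Genes with the most similar course over the 4 libraries were sought for *Fcgr4* and *Fcgr2b* among 9178 genes, by the root mean square difference of centered log2 values. Those nearest *Fcgr4* were *Wdr61*, *Garnl3*, *Gapt*, *Dusp1* and *P2rx1*, with differences of 0.066 to 0.097. *Dusp1*, an early-response phosphatase of MAP kinases, had 139 CPM in control ZT2, 123 CPM in control ZT14, 124 CPM in MCS ZT2 and 224 CPM in MCS ZT14. Those nearest *Fcgr2b* were *Bahcc1*, *Adck3*, *Mast4*, *Ripk2* and *Swap70*, with differences of 0.010 to 0.020. *Swap70*, a B cell and myeloid signaling protein, had 126 CPM in control ZT2, 177 CPM in control ZT14, 136 CPM in MCS ZT2 and 134 CPM in MCS ZT14. With 4 libraries many genes come close to any course, and the likeness is a description only.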

How the data were processed

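The data were bulk RNA-seq of sorted peritoneal macrophages, with 4 libraries that cover control and MCS at each time point. According to the submitters' processing notes and the study's methods, the authors used Trimmomatic 0.38 for trimming and RSEM 1.3.0 with Bowtie2 on mm10 for counting, and deposited CPM values normalized with edgeR. The annotation and any expression filter are not given in the sources used here. All values (100% within 0.05 read) were whole multiples of the smallest value of their library, 0.102 to 0.116 CPM per read. Because estimates from RSEM are often fractional, rounding by the authors cannot be told apart from true whole reads. A count of 0 is compatible with an expected count of up to about 3 reads, 0.307 to 0.348 CPM.

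Log2 ratios used a pseudocount of 0.1 CPM, and genes with a log2 mean of both libraries above 0 were counted. Counting intervals (95%) were exact conditional binomial (Clopper-Pearson) intervals for ratios of levels and for receptor ratios within a library, and exact conditional odds ratio intervals for these ratios between libraries. The count test was edgeR's quasi-likelihood test on the reads of 12404 genes with at least 40 reads, with additive terms for time and MCS. It called 23 genes for MCS and 271 for time. On data simulated with 4-fold changes that were equal at both time points, it called 193 of 193 changed genes and 5 unchanged ones of 12391. Every gene had the same dispersion there, so power for smaller effects or for effects that differ by time point was not shown. In libraries simulated for MCS and control at ZT14 with counting noise only, 200 genes were changed 4-fold. Of the 182 changed genes above the minimum, 180 passed a log2 ratio of 1, along with 72 unchanged genes, of 15298.

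The 9 genes and the lists were chosen with earlier results of these data known. Genes were named by a rule: the 9 genes, every other Fc receptor, of each other list the genes of at least 10 CPM past a log2 ratio of 1 in any comparison or otherwise the 2 with the largest ratio, and the 5 genes most like *Fcgr4* and *Fcgr2b*. Coordinates and transcripts came from GENCODE M21 and promoters from RefSeq. *Lyn* had no promoter entry. Other assays of the study were not used here. Software was R 4.3.3 and edgeR 4.0.16 for the count test, and otherwise Python 3.11.15, scipy 1.17.1, numpy 2.4.6, pandas 2.3.3 and, for figures, matplotlib 3.10.9.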

Additional observations from a re-analysis of the deposited data

Results flagged for a closer look

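The ratio of MCS to control had opposite signs at ZT2 and ZT14, with both counting intervals excluding 0, for 4 of the 9 genes and for 10.2% of 12236 genes above the minimum at both time points. Counting intervals are narrow for abundant genes such as these, and with the dispersion of the count test added, all 4 had intervals that included 0 at both time points. The log2 ratio at ZT14 minus that at ZT2 was -0.54 for *Fcgr2b*, -0.42 for *Syk*, -0.43 for *Inpp5d* and -0.33 for *Ptpn6*. Each was higher with MCS at ZT2 and lower at ZT14. With 1 library per condition the difference between the time points was not tested. For *Fcgr4*, whose ratio at ZT2 had an interval that included 0, the same difference was 1.21 (95% counting interval 0.93 to 1.49).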

How the results depend on the processing

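No paired analysis was possible because each condition has 1 library, so that no replicate numbers are shared between conditions. The count test holds the time point as a term of its model. Pseudocounts of 1 and 0.01, a median gene ratio of 1, recomputed TMM factors (which equal the deposited scaling) and scaling to reads without *Rn45s* each left all 36 log2 ratios of the 9 genes within their counting intervals. The sum of *Fcgr2b* and *Fcgr3* had a log2 ratio of -0.038 with MCS at ZT14 and -0.15 between the time points in control. *Fcgr3* alone had 0.24 and 0.13, and the sum does not separate the genes. A threshold of 0.5 raised the genes counted to 2 with MCS at ZT14, 1 between the time points in control and 2 in MCS. Over all genes, the count at ZT14 of 421 was 174 with a pseudocount of 1, 2065 at a threshold of 0.5, 1615 with no minimum and 81 above a log2 mean of 3. The same settings gave 101, 1317, 1434 and 26 for MCS at ZT2, where the count was 279. Between the time points they gave 229, 1913, 1567 and 139 in control (450) and 409, 2955, 2053 and 197 in MCS (731). The log2 ratio of activating to inhibitory receptors without *Fcgr3* was 1.40 for MCS at ZT14, -0.24 at ZT2 and -0.95 between the time points in MCS. Without *Fcgr4* it was 0.62 for MCS at ZT14 and -0.077 between the time points in MCS. With a geometric mean of the receptors it was 1.04 and -0.59, respectively. The count test called 43 genes for MCS at a minimum of 10 reads, against 23, and none of the 9 genes under any setting, with an adjusted p for *Fcgr4* of 0.52 there. Depth limits *Fcgr1* most, which had at most 160 reads in a library, and the wider interval rests on 1 residual degree of freedom. The causes of these changes were not tested.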
